A study of Sus scrofa with 12 samples.

Results

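LIF and IL6 are secreted cytokines of 1 family. LIF binds the receptor chain LIFR, IL6 binds the receptor chain IL6R, and both complexes signal through the shared chain IL6ST, also called gp130. The kinases JAK1 and JAK2 sit on these receptors and phosphorylate STAT3, a transcription factor that enters the nucleus and switches on genes such as SOCS3, whose product damps the same receptors. In the mouse, LIF acting through STAT3 is the classical signal that keeps embryonic stem cells (ESCs) undifferentiated. The growth medium given in the labels of the pig ESC lines lists no LIF. The lines grew on feeder cells, and whether these released LIF was not measured. The question here was whether the ESCs express the receptors and kinases that LIF would need.

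The 9 genes LIF, IL6, LIFR, IL6R, IL6ST, JAK1, JAK2, STAT3 and SOCS3 were followed across 12 polyA RNA-seq libraries from the pig, which form 4 groups of 3. They are 9 of 30012 loci in the deposited table, and were found by gene symbol. The 9 symbols stood on 21 loci, and where a symbol stood on several, the locus with the highest mean level was used, with loci that the table marks as known preferred. The table gives FPKM, the fragments of a transcript divided by its length and by the mapped fragments of the library. It is a level per length and can be compared between genes.

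The groups were Parthenogenetic ESC-7 and Parthenogenetic ESC-3 (here ESC7 and ESC3), IVF-derived ESC-11 (here ESC11), and fetal fibroblasts. Parthenogenetic embryos arise from an egg alone, with no paternal genome, and IVF stands for in vitro fertilisation. Each origin is tied to its lines, with 2 parthenogenetic lines and 1 IVF line, so origin and line cannot be told apart. All ESCs grew on feeder cells in KO-DMEM with the serum replacement KSR, 20 ng/mL FGF2, 5 ng/mL ActA, 1.5 µM CH and 2.5 µM IWR-1, and saw 10 µM Y-27632 around each passage. Before RNA extraction they were sorted on magnetic columns for SSEA1, a surface antigen of the undifferentiated cells. The fibroblasts came from a fetus at day 30, were at passage 6, and the protocol names the sort for the ESCs alone, so culture, sort and cell type differ together between ESCs and fibroblasts.

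The markers of the labelled cell types were present. The summed FPKM of 4 matched pluripotency genes (of 5 listed) was 1842 to 2073 in ESC libraries and 1.30 to 1.73 in fibroblast libraries. The sum of 7 matched stroma genes (of 8 listed) was 65.0 to 105 in ESC libraries and 15912 to 16087 in fibroblast libraries. Trophectoderm genes (2 of 3 matched) summed to 0.163 or less in ESC libraries, against 4.55 to 5.82 in fibroblast libraries. Blood and endothelial genes (4 of 5 matched) summed to 0.869 to 1.81 in ESC libraries, against 7.44 to 7.70 in fibroblast libraries. Between 21898 and 24100 loci were above 0 in a library, and the table used here holds no counts, so depth is unknown.

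Pig ESCs carried transcripts of the receptor chains LIFR, IL6R and IL6ST. IL6ST was the most abundant of the 9 genes in ESCs, with LIFR far below it and at a level close to that in fibroblasts. The cytokine LIF itself and the kinase JAK1 were each roughly an order of magnitude lower in ESCs than in fibroblasts. JAK2, STAT3 and SOCS3 were lower in ESCs by smaller factors. A gene was called changed in limma at a Benjamini-Hochberg adjusted p under 0.05 over all 18278 loci tested, with a difference of at least 1 in log2(FPKM + 1), a scale that understates the change of genes at low levels.

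**Figure D1:**
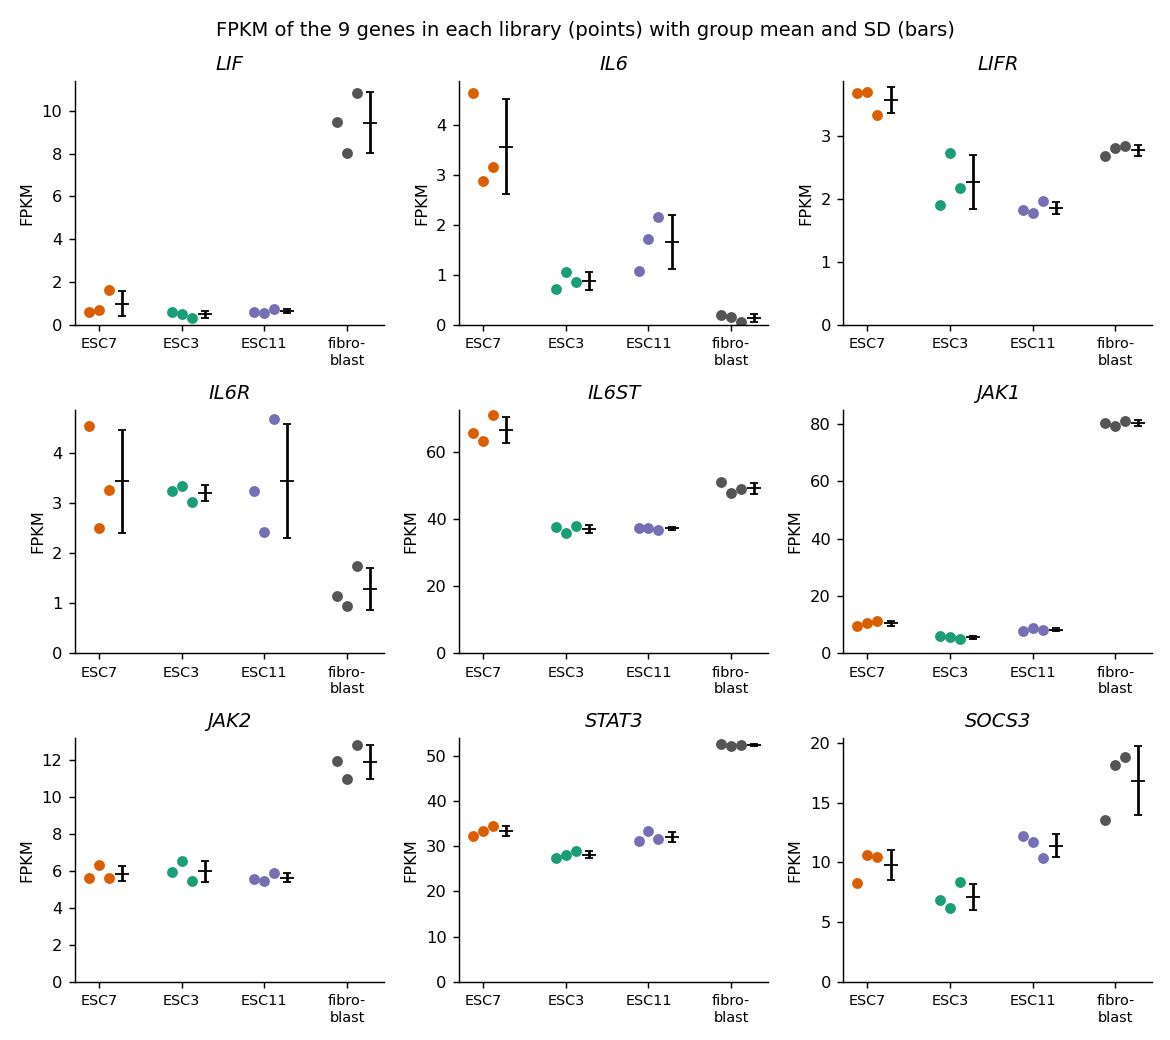
FPKM (vertical axes, each from 0) of the 9 genes in ESC7, ESC3, ESC11 and fibroblast libraries. Points are single libraries and bars are the group mean with SD (n = 3). LIF and JAK1 are low in all ESC libraries and high in fibroblasts, while IL6ST and LIFR, as deposited, are highest in ESC7.

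Of the receptor chains, IL6ST, the signal-transducing chain shared by the whole cytokine family, lies on chromosome 16 (37476095 to 37526617, plus strand, Sscrofa10.2). It stood at 65.5, 63.2 and 70.9 FPKM in ESC7, 37.7, 35.7 and 37.8 FPKM in ESC3, and 37.4, 37.4 and 36.8 FPKM in ESC11, against 51.0, 47.7 and 48.8 FPKM in fibroblasts. All ESC7 libraries were above the fibroblasts and all ESC3 and ESC11 libraries below them, although with median-ratio scaling ESC7 minus fibroblasts was -0.043, against 0.43 without scaling. Over the 9 ESC libraries the mean was 46.9 ± 14.8 FPKM, and it was 49.2 ± 1.64 FPKM in fibroblasts (SD, n = 3). The mean of the ESC lines differed from fibroblasts by -0.12 ± 0.04 (log2, limma SE, adjusted p = 0.0103), which is under the fold minimum and averages lines that lay on both sides of the fibroblasts. Among loci with an Ensembl identifier, IL6ST stood at percentile 89.6 of mean FPKM in ESCs and at percentile 91.6 in fibroblasts.

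LIFR, the chain that gives LIF its specificity, lies on chromosome 16 as well (24923878 to 25016513, minus strand). Its FPKM was 3.67, 3.69 and 3.33 in ESC7, 1.90, 2.73 and 2.16 in ESC3, and 1.83, 1.77 and 1.96 in ESC11, against 2.67, 2.80 and 2.83 in fibroblasts. ESC7 was above the fibroblasts in every library and ESC11 below them in every library, while ESC3 overlapped them. The sign of ESC7 minus fibroblasts depended on scaling, at 0.28 without it, -0.17 with quantile and -0.090 with median-ratio scaling. LIFR averaged 2.56 ± 0.809 FPKM in ESCs (n = 9) and 2.77 ± 0.0866 FPKM in fibroblasts (n = 3). The difference was -0.11 ± 0.07 (log2, limma, adjusted p = 0.140) with a 95% interval of -0.27 to 0.04. That interval lies within the fold minimum on both sides. Relative to the median of all loci, which was itself 0.44 higher in ESCs than in fibroblasts, both LIFR and IL6ST were at -0.56.

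The level of IL6ST was 13.1 to 21.3 times that of LIFR in the ESC libraries and 17.0 to 19.1 times in the fibroblast libraries. The mean ratio was 18.8 ± 2.20 in ESC7, 16.8 ± 3.41 in ESC3 and 20.1 ± 1.17 in ESC11, against 17.8 ± 1.13 in fibroblasts (SD, n = 3 each). The ESC range contained the fibroblast range.

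IL6R, which binds IL6, stands on 2 overlapping loci of chromosome 4. The locus taken by the rule (ENSSSCG00000006549, 104223859 to 104235575, plus strand) lies inside a locus on the other strand (ENSSSCG00000027628, 104198431 to 104250107, minus strand). Whether counting used strand was not stated, so their reads may be mixed. The inner locus had 4.54, 2.50 and 3.26 FPKM in ESC7, 3.24, 3.33 and 3.01 in ESC3 and 3.23, 2.41 and 4.67 in ESC11, against 1.15, 0.935 and 1.75 FPKM in fibroblasts. Every ESC library was above every fibroblast library. The mean was 2.63 times as high in ESCs (3.36 ± 0.784 FPKM, n = 9) as in fibroblasts (1.28 ± 0.423 FPKM, n = 3). The difference of 0.93 ± 0.17 (log2, limma, adjusted p = 0.000422) was just under the fold minimum. It was 1.08, and past the minimum, without fibroblast replicate 3. The outer locus, the one that the reference name table calls IL6R, averaged 1.78 FPKM in ESCs and 0.987 FPKM in fibroblasts, and also did not overlap between them. Its difference was 0.48 (limma adjusted p = 8.69e-06), which is 0.04 relative to the median of all loci.

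The ligand LIF (chromosome 14, 50260529 to 50277161, minus strand) was low in every ESC library. Its FPKM was 0.613, 0.688 and 1.65 in ESC7, 0.621, 0.508 and 0.329 in ESC3, and 0.603, 0.565 and 0.733 in ESC11, against 9.49, 8.01 and 10.8 in fibroblasts. The highest ESC library was far below the lowest fibroblast library. LIF fell 13.5-fold, to 0.701 ± 0.374 FPKM in ESCs (n = 9), against 9.44 ± 1.42 FPKM in fibroblasts (n = 3), a difference of -2.63 ± 0.15 (log2, limma, adjusted p = 1.96e-08). It passed in each line alone, at -2.43 in ESC7, -2.81 in ESC3 and -2.67 in ESC11. Only loci at 1 FPKM or more in at least 3 libraries were tested. LIF passed that filter only with the fibroblast libraries, so a difference was built into passing. In bulk RNA, fewer expressing cells and less RNA per cell cannot be told apart. The stroma markers moved with LIF between ESCs and fibroblasts, as given above, and their part in the result was not tested.

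The values for the ligand IL6, an inflammatory cytokine, depend on which locus is read. The rule chose a locus without an Ensembl identifier (XLOC_023649, chromosome 9, 100947647 to 101026143, plus strand) that contains the mitochondrial import gene TOMM7 on the same strand. It ends 54.9 kb before the Ensembl locus of IL6 (ENSSSCG00000027850, 101081041 to 101085426, minus strand). TOMM7 ran at 255.5 to 400.7 FPKM in ESC libraries and 90.5 to 108 FPKM in fibroblast libraries, and its part in the first locus was not tested.

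On the first locus the level was 4.65, 2.88 and 3.16 FPKM in ESC7, 0.718, 1.07 and 0.858 FPKM in ESC3, and 1.08, 1.72 and 2.15 FPKM in ESC11, against 0.197, 0.160 and 0.0541 FPKM in fibroblasts. All ESC libraries were above all fibroblast libraries, and the locus rose by 1.30 ± 0.14 (log2, limma, adjusted p = 5.38e-06). It passed the filter on low values only through ESC libraries, so a difference was built into passing. On the Ensembl locus the level was 0.928, 0.292 and 0.576 FPKM in ESC7, 0.182 FPKM in ESC3 replicate 2 with both other ESC3 libraries listed at 0, and 0.130, 0.340 and 0.270 FPKM in ESC11, against 0.407, 0.870 and 0.449 FPKM in fibroblasts. There the groups overlapped, no library reached 1 FPKM, and the locus was under the filter on low values. Fitted without a filter it differed by -0.29 (limma adjusted p = 0.0556), the opposite sign. A higher level of IL6 in ESCs therefore holds for the first locus alone, and the Ensembl locus does not show it.

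JAK1, the kinase most used by gp130 receptors, showed the largest difference of the 9 genes on the log2(FPKM + 1) scale. On its Ensembl locus (chromosome 6, 135899356 to 135919840, minus strand) it had 9.65, 10.5 and 11.1 FPKM in ESC7, 6.01, 5.83 and 4.94 FPKM in ESC3, and 7.79, 8.79 and 8.26 FPKM in ESC11, against 80.4, 79.2 and 81.1 FPKM in fibroblasts. The groups were far apart, with little spread within any of them. JAK1 fell 9.92-fold, to 8.09 ± 2.15 FPKM in ESCs (n = 9), against 80.3 ± 0.98 FPKM in fibroblasts (n = 3), a difference of -3.20 ± 0.06 (log2, limma, adjusted p = 2.43e-12). The difference was -2.83 in ESC7, -3.63 in ESC3 and -3.13 in ESC11, and each passed. JAK1 was at percentile 62.1 of Ensembl loci in ESCs and at percentile 95.2 in fibroblasts.

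The symbol JAK1 also stood on 9 short loci of 115 to 536 bp that the table marks as absent from the annotation. On each of them the ESC mean was 8.17% to 13.0% of the fibroblast mean, and no ESC library reached a fibroblast library. Of these 9 loci 7 were called lower in limma, beside 14.9% of all loci. The other two, XLOC_028009 and XLOC_024927, had adjusted p-values of 0.0981 and 0.0619. The FPKM of these short loci spread widely between libraries. How multiply mapped reads were counted was not stated, so the 9 loci may not be separate measures of JAK1. The values that stand for JAK1 elsewhere are those of the Ensembl locus.

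**Figure D2:**
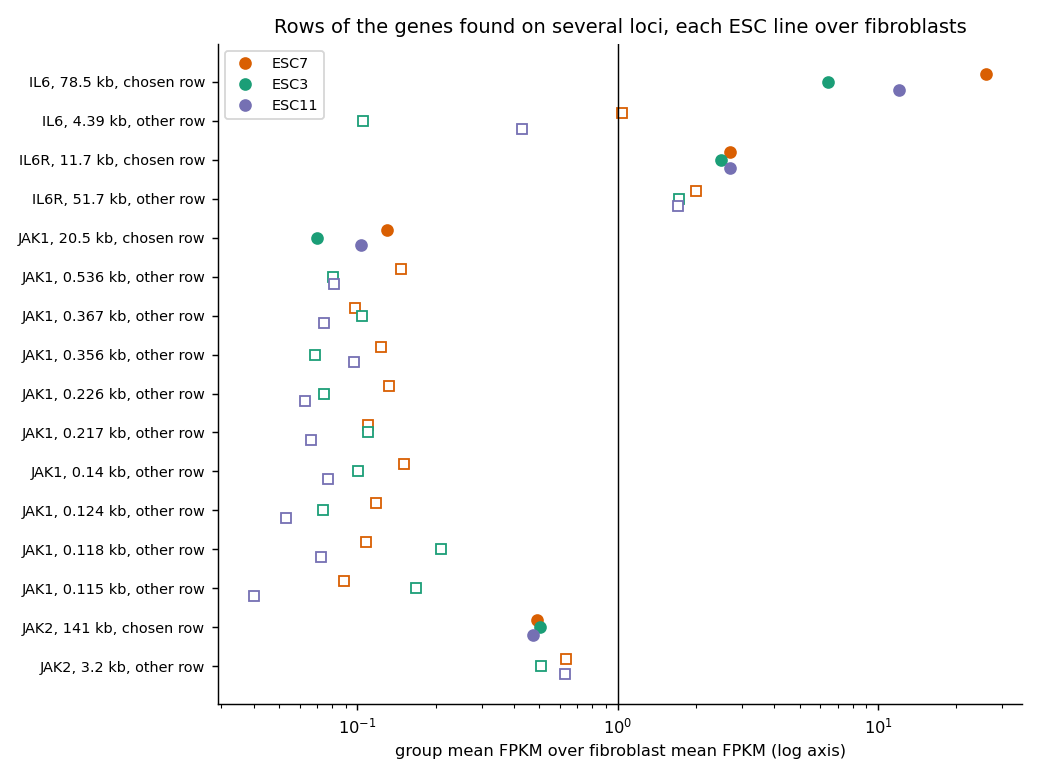
Ratio of the group mean FPKM of ESC7, ESC3 and ESC11 to the fibroblast mean (log axis) for each locus of the 4 symbols found on several loci, named by the length spanned. Filled circles are the loci chosen by the rule and open squares the other loci. All JAK1 loci lie left of 1 and both IL6R loci right of it, while the loci of IL6 disagree.

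JAK2, the second kinase (chromosome 1, 242696463 to 242837736, minus strand), was even across the lines. Its FPKM was 5.63, 6.32 and 5.60 in ESC7, 5.95, 6.52 and 5.43 in ESC3, and 5.57, 5.47 and 5.89 in ESC11, against 11.9, 10.98 and 12.8 in fibroblasts. No ESC library reached a fibroblast library, and the mean was 2.05 times lower in ESCs (5.82 ± 0.384 FPKM, n = 9) than in fibroblasts (11.9 ± 0.915 FPKM, n = 3). At -0.92 ± 0.06 (log2, limma, adjusted p = 8.8e-08) it stayed under the fold minimum, while relative to the median of all loci it was -1.36. A second JAK2 locus of 3204 bp (XLOC_000707) had an ESC mean of 59.0% of the fibroblast mean, a difference of -0.57. The lines did not differ beyond their spread, and the 95% interval of ESC7 minus ESC3 was -0.19 to 0.14.

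STAT3, the transcription factor at the end of the route (chromosome 12, 20709865 to 20775706, minus strand), was the second most abundant of the 9 genes in ESCs. It stood at 32.2, 33.4 and 34.4 FPKM in ESC7, 27.5, 27.98 and 29.0 FPKM in ESC3, and 31.2, 33.4 and 31.6 FPKM in ESC11, against 52.7, 52.2 and 52.5 FPKM in fibroblasts. All ESC libraries lay below all fibroblast libraries, and the mean was 31.2 ± 2.50 FPKM in ESCs (n = 9) and 52.5 ± 0.253 FPKM in fibroblasts (n = 3). The difference of -0.74 ± 0.03 (log2, limma, adjusted p = 1.58e-09) was under the fold minimum. It was -1.18, and past it, when libraries were scaled by median ratios. The locus lies inside that of STAT5B on the other strand, and reads of both cannot be told apart where strand was not used. Transcript level says nothing of phosphorylated STAT3, which was not measured.

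SOCS3, the feedback inhibitor that STAT3 induces, lies on the unplaced scaffold GL896293.1 (8391 to 10729, minus strand). Its FPKM was 8.29, 10.6 and 10.4 in ESC7, 6.83, 6.21 and 8.34 in ESC3, and 12.2, 11.7 and 10.3 in ESC11, against 13.5, 18.2 and 18.8 in fibroblasts. Every ESC library was below every fibroblast library, with means of 9.44 ± 2.11 FPKM in ESCs (n = 9) and 16.8 ± 2.89 FPKM in fibroblasts (n = 3). The difference was -0.79 ± 0.12 (log2, limma, adjusted p = 7.71e-05), under the fold minimum, and -1.03 and -1.21 with quantile and median-ratio scaling. By line it was -1.13 in ESC3 (limma adjusted p = 2.41e-05), -0.72 in ESC7 and -0.51 in ESC11. Without scaling only ESC3 was past the minimum, and with 5 in place of 1 added to the FPKM it was at -0.84. ESC7 was past the minimum with quantile (-1.02) and median-ratio scaling (-1.17).

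**Figure D3:**
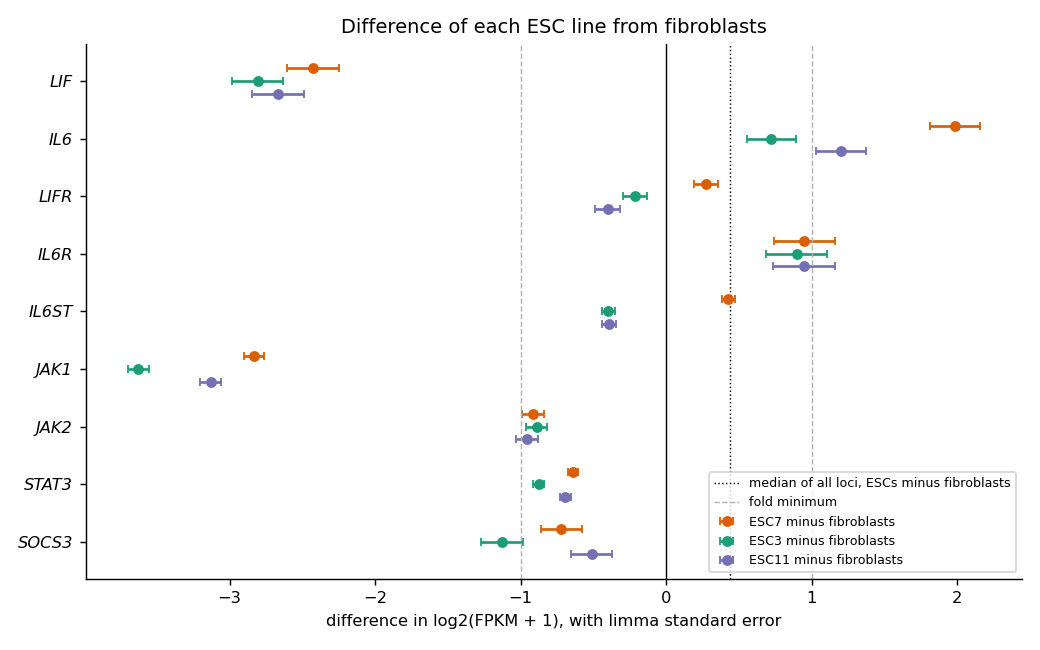
Difference in log2(FPKM + 1) of ESC7, ESC3 and ESC11 from fibroblasts for the 9 genes, with the limma standard error. Dashed lines mark the fold minimum of 1 and the dotted line the median of all loci in ESCs against fibroblasts, 0.44. LIF and JAK1 lie far to the left in all lines, and LIFR and IL6ST lie on both sides of 0, where ESC7 crosses to the left with median-ratio scaling.

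Of the 9 genes 1 was called higher in ESCs (IL6, on the locus of uncertain identity) and 2 lower (LIF and JAK1), while 6 were not called. Among all loci 43.1% were called, 28.1% higher and 14.9% lower, so without scaling the count of called members is near the background and is no result about them. LIF passed the filter on low values only with the fibroblast libraries, since 1 of 9 ESC libraries reached 1 FPKM, and IL6 only through ESC libraries, so for both a difference was built into passing. By the adjusted p alone 8 of 9 passed, all but LIFR, beside 87.7% of all loci. The median difference of the 9 genes was -0.74, against 0.44 over all loci. With quantile and median-ratio scaling the median of all loci was 0.10 and 0.04. The split of called loci was 5144 higher and 2730 lower without scaling, 3489 and 3476 with quantile normalization, and 3511 and 3811 with median ratios. LIF, LIFR, IL6ST, JAK1, JAK2, STAT3 and SOCS3 were lower in all ESCs together than in fibroblasts with no scaling and under both scalings. With quantile normalization 0 members were called higher and 4 lower (LIF, JAK1, JAK2 and SOCS3), beside 38.1% of all loci. With median ratios 1 was called higher (the first IL6 locus) and 5 lower, with STAT3 added, beside 40.1% of all loci.

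Line by line, 3 of 9 were called against fibroblasts in each line. In ESC7 they were the first IL6 locus higher and LIF and JAK1 lower, beside 43.4% of all loci. In ESC3 LIF, JAK1 and SOCS3 were lower, beside 44.1% of all loci. In ESC11 the loci were those of ESC7, beside 42.9%. The Ensembl locus of IL6, fitted without a filter, differed from fibroblasts by 0.01 in ESC7 and by -0.33 in ESC11. These comparisons share the fibroblast libraries.

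The order of levels in ESCs was IL6ST (35.7 to 70.9 FPKM), then STAT3 (27.5 to 34.4 FPKM). SOCS3 (6.21 to 12.2 FPKM), JAK1 (4.94 to 11.1 FPKM) and JAK2 (5.43 to 6.52 FPKM) followed and overlapped. IL6R, LIFR and the first IL6 locus overlapped below them, and LIF was lowest by its mean. In fibroblasts JAK1 led (79.2 to 81.1 FPKM), before STAT3, IL6ST, SOCS3, JAK2, LIF, LIFR, IL6R and the first IL6 locus, and no neighbours in that order overlapped. JAK1 thus stood first in fibroblasts and within the overlapping middle group in ESCs.

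Between the ESC lines, ESC7 had the highest level of IL6ST and LIFR, while IL6R did not differ beyond its spread. IL6ST was 1.79 times as high in ESC7 (66.5 ± 3.91 FPKM) as in ESC3 (37.1 ± 1.17 FPKM) and 1.79 times as high as in ESC11 (37.2 ± 0.335 FPKM; SD, n = 3 each). The differences were 0.83 ± 0.05 from ESC3 (log2, limma, adjusted p = 5.33e-07) and 0.82 ± 0.05 from ESC11 (adjusted p = 7.67e-07), under the fold minimum. ESC3 and ESC11 differed by -0.0047 with a 95% interval of -0.11 to 0.10.

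LIFR was 1.57 times as high in ESC7 as in ESC3 and 1.92 times as high as in ESC11. The differences were 0.49 ± 0.08 (limma adjusted p = 0.00112) and 0.68 ± 0.08 (adjusted p = 0.000235), and ESC3 minus ESC11 was 0.19 (adjusted p = 0.143). IL6ST and LIFR share chromosome 16, whose 224 Ensembl loci had a median difference of 0.02 between ESC7 and ESC3 and 0.05 between ESC7 and ESC11.

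On its Ensembl locus JAK1 differed among all lines by the adjusted p, with every difference under the fold minimum. It was 1.86 times as high in ESC7 (10.4 ± 0.728 FPKM) as in ESC3 (5.59 ± 0.574 FPKM), a difference of 0.79 ± 0.07 (log2, limma, adjusted p = 1.59e-05). ESC7 minus ESC11 was 0.30 (adjusted p = 0.0103) and ESC3 minus ESC11 was -0.50 (adjusted p = 0.000822). The short JAK1 loci did not share this order of lines. On them ESC3 minus ESC11 ran from -5.68 to 4.94 and ESC7 minus ESC3 from -0.84 to 6.72. STAT3 was higher in ESC7 than in ESC3 by 0.24 (adjusted p = 0.000632) and lower in ESC3 than in ESC11 by a difference of -0.18 (adjusted p = 0.00589). SOCS3 followed, with 0.41 for ESC7 minus ESC3 (adjusted p = 0.0432) and -0.62 for ESC3 minus ESC11 (adjusted p = 0.0116). ESC3 thus had the lowest mean of JAK1, STAT3 and SOCS3 among the lines. IL6R did not differ beyond its spread, at 0.05 for ESC7 minus ESC3 with a 95% interval of -0.42 to 0.52.

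**Figure D4:**
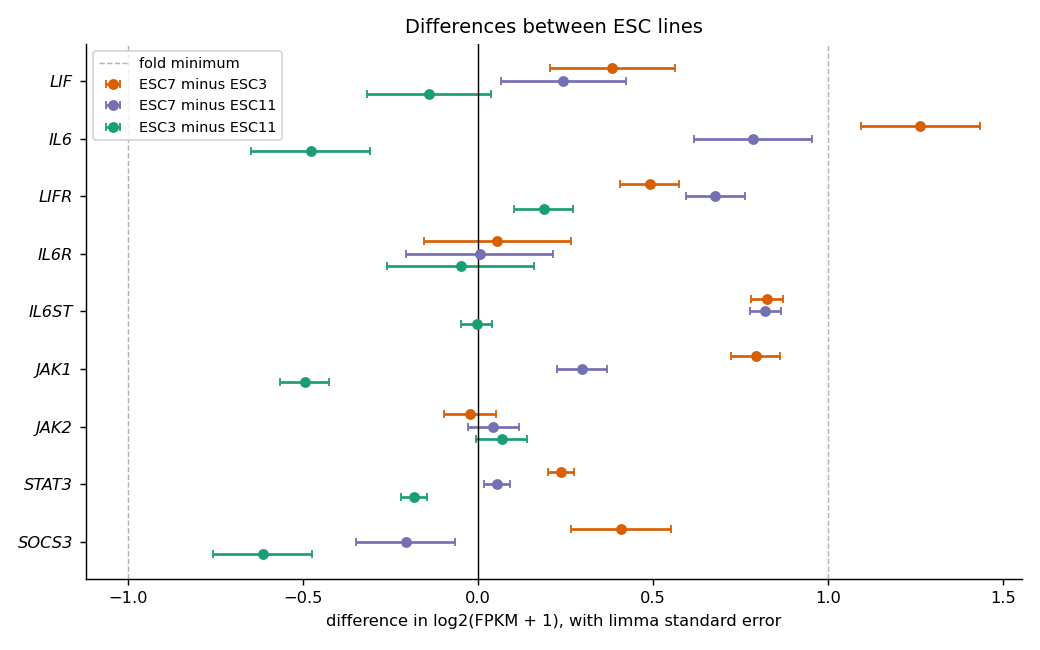
Differences in log2(FPKM + 1) between ESC lines for the 9 genes, ESC7 minus ESC3, ESC7 minus ESC11 and ESC3 minus ESC11, with the limma standard error. IL6ST and LIFR lie right of 0 in both comparisons of ESC7, and the IL6 locus in ESC7 minus ESC3 is past the dashed fold minimum of 1.

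The first IL6 locus was the 1 member called between lines. It rose by 1.26 ± 0.17 in ESC7 over ESC3 (log2, limma, adjusted p = 0.000237), with 3.38% of all loci called there. ESC7 minus ESC11 was 0.79 (adjusted p = 0.00627). On the Ensembl locus of IL6, ESC7 minus ESC3 was 0.58, under the minimum. No member was called between ESC7 and ESC11, where 2.94% of loci were, between ESC3 and ESC11, where 2.48% were, or between both parthenogenetic lines and ESC11, where 2.2% were. By the adjusted p alone, 6 of 9 were higher in ESC7 than in ESC3, as were 4181 of 18278 loci (39.9% of all loci passed, in either direction). Likewise 4 were higher in ESC7 than in ESC11, as were 3578 loci (30.9% passed in either direction). Lower in ESC3 than in ESC11 were 3, as were 1981 loci (23.0% passed in either direction). With both parthenogenetic lines together, IL6ST was at 0.41, LIFR at 0.43 and SOCS3 at -0.41 against ESC11, and the 0.41 and 0.43 average an ESC7 that stood apart with an ESC3 that did not.

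Of the 4 listed primitive endoderm markers, GATA6 alone was highest in ESC7 among the ESC lines. The summed FPKM of the 4 genes was 2.55 to 2.84 in ESC7, 0.709 to 1.56 in ESC3 and 1.14 to 1.25 in ESC11, against 0.911 to 1.18 in fibroblasts. GATA6 averaged 2.57 FPKM in ESC7, 0.724 FPKM in ESC3 and 1.05 FPKM in ESC11, and was called higher in ESC7 than in ESC3 (1.08, limma adjusted p = 0.000239), a call lost at 0.96 with quantile scaling or without ESC3 replicate 1. The other listed markers, GATA4, SOX17 and FOXA2, were near the floor, each at 0.2 FPKM or less in every ESC library. Their means were lower in ESC7 (0.0499, 0.0142 and 0.0458 FPKM) than in ESC3 (0.0807, 0.0278 and 0.164 FPKM). In ESC11 the means were 0.0229, 0.0337 and 0.0936 FPKM, so GATA4 was higher in ESC7 than there and SOX17 and FOXA2 lower. The part of GATA6-expressing cells in the higher IL6ST and LIFR of ESC7 was not tested. The stroma sum was 69.8 to 81.0 in ESC7, 80.1 to 105 in ESC3 and 65.0 to 69.2 in ESC11. Most of it was VIM, at 55.3 FPKM in ESC7, 69.2 in ESC3 and 50.9 in ESC11. By their means VIM, COL1A1 and PDGFRB were highest in ESC3 and LUM in ESC11, while DCN, COL1A2 and COL3A1 were highest in ESC7. DCN averaged 0.523 FPKM in ESC7, 0.0787 in ESC3 and 0.110 in ESC11. The part of stroma cells in the higher IL6ST and LIFR of ESC7 was not tested.

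The other genes of the route, from lists chosen with results of these data known, were read for the same comparison of ESCs with fibroblasts. In it 28.1% of all loci were called higher and 14.9% lower. In the list counts below, rose and fell mean called, and these shares are their background. Of 8 further ligands of the family, 6 were in the table and 2 passed the filter, and both were called lower. CLCF1, a ligand of the CNTF receptor, was at 0.503 ± 0.116 FPKM in ESCs (n = 9) and 9.11 ± 0.512 FPKM in fibroblasts (n = 3), a difference of -2.75 (limma adjusted p = 2.46e-11). CLCF1 passed the filter through the fibroblast libraries alone, so its direction was fixed by passing. OSM, CTF1, IL27 and EBI3 were under the filter.

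Of 4 further receptor chains, all tested, 1 rose and 1 fell. CNTFR, the chain that binds CNTF and pairs with LIFR and IL6ST, was at 14.7 ± 1.42 FPKM in ESCs (n = 9) and 1.41 ± 0.259 FPKM in fibroblasts (n = 3), a difference of 2.70 (limma adjusted p = 9.12e-12). OSMR, the oncostatin M chain that also pairs with IL6ST, was at 1.72 ± 0.439 FPKM in ESCs and 9.73 ± 0.252 FPKM in fibroblasts, a difference of -2.00 (adjusted p = 7.44e-11). The ESC level of CNTFR was thus above that of LIFR, and that of OSMR (1.13 to 2.43 FPKM) overlapped that of LIFR. IL11RA and IL27RA were at -0.27 and -0.85, and IL27RA was called with either scaling.

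Of 8 further JAK and STAT genes 6 were tested, of which 1 rose and 4 fell, with a median of -1.21. JAK3, a kinase known from lymphoid cytokine receptors, rose by 2.54, to 5.69 ± 1.67 FPKM in ESCs (n = 9), against 0.118 ± 0.0337 FPKM in fibroblasts (n = 3). TYK2, another kinase found at gp130 receptors, fell by 1.14, to 18.2 FPKM in ESCs, against 41.3 FPKM in fibroblasts. STAT5B (-1.29), which overlaps STAT3, and STAT6 (-1.27) also fell. JAK3 passed the filter through ESC libraries alone and STAT6 through fibroblast libraries alone, so the counts are no more than a description. STAT2 was at -0.93, and was called with either scaling.

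Of the 5 genes that link gp130 to the RAS pathway 1 fell, with a median of 0.12 that was -0.12 with quantile and -0.33 with median-ratio scaling. GAB1, a docking protein, was at 3.95 ± 0.749 FPKM in ESCs (n = 9) and 18.8 ± 0.778 FPKM in fibroblasts (n = 3), a difference of -2.01. PTPN11, which encodes the phosphatase SHP2, was at -0.54. Of 14 listed inhibitors 12 were tested, and 1 rose, with a median of 0.57, against 0.44 over all loci. The inhibitor median was 0.27 with quantile and 0.14 with median-ratio scaling. PTPN2, a phosphatase of JAK and STAT proteins, was at 70.6 ± 17.7 FPKM in ESCs and 25.8 ± 8.45 FPKM in fibroblasts, a difference of 1.43 ± 0.27 that was 0.99 with median-ratio scaling, where SOCS4 and PIAS3 were called lower.

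Of 24 genes known as targets of LIF or STAT3, mostly from mouse cells, 19 were tested. Of these 7 rose and 6 fell, beside 28.1% and 14.9% of all loci. Their median was -0.25, against 0.44 over all loci. With quantile scaling 5 rose and 6 fell, with a median of -0.49, beside 38.1% of all loci called in either direction. With median ratios 5 rose and 8 fell, BCL3 and HIF1A among them, with a median of -0.70, beside 40.1% of all loci. SALL4 and GBX2 passed the filter through ESC libraries alone and TBX3 through fibroblast libraries alone. SALL4, a pluripotency factor, rose by 5.89, to 59.0 FPKM in ESCs, against 0.0104 FPKM in fibroblasts. FOS, an immediate early gene, rose by 4.49, to 119 FPKM in ESCs, against 4.28 FPKM in fibroblasts. PIM2, a survival kinase, rose by 4.31, to 74.6 FPKM in ESCs, against 2.56 FPKM in fibroblasts. CEBPD, an acute-phase factor, fell by 4.19, to 1.22 FPKM in ESCs, against 39.2 FPKM in fibroblasts.

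KLF5, PIM1, PIM3 and GBX2 were the other targets that rose, of which PIM3 and GBX2 were not called with either scaling, and KLF4, TBX3, CCND1, IER3 and VEGFA the others that fell. The pluripotency factor KLF4, a LIF target in the mouse, thus went the other way from KLF5. PIM2 was also the 1 gene of the 6 lists called between lines, with 53.5 ± 1.45 FPKM in ESC7, 116 ± 2.39 FPKM in ESC3 and 54.8 ± 0.897 FPKM in ESC11 (SD, n = 3 each). ESC7 minus ESC3 was -1.10 (limma adjusted p = 3.2e-07) and ESC3 minus ESC11 was 1.06 (adjusted p = 6.23e-07), or 0.99 with quantile scaling.

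**Figure D5:**
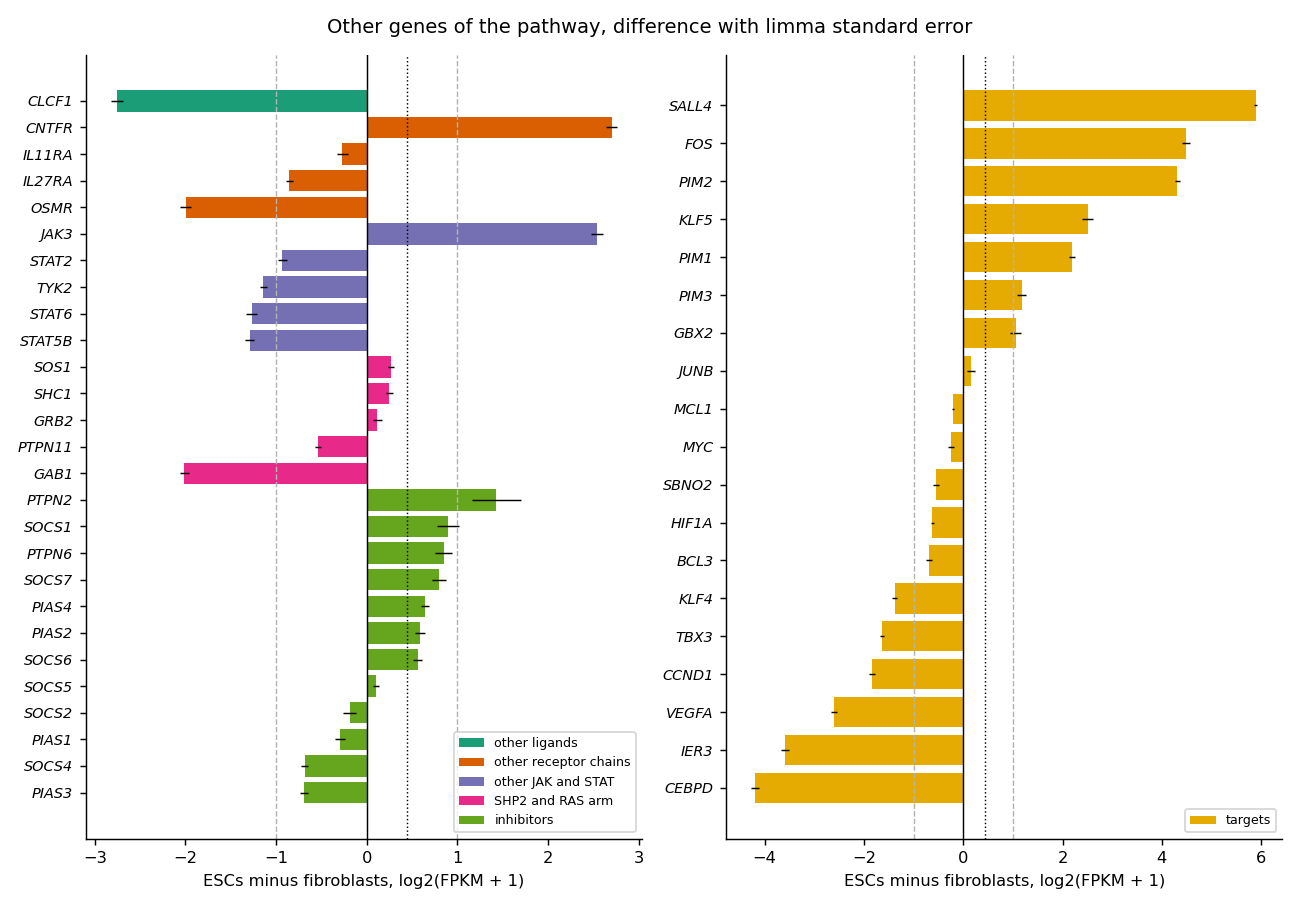
Difference in log2(FPKM + 1) of ESCs minus fibroblasts for tested genes of the 6 further lists, with the limma standard error, coloured by list, with the targets in the right panel. Dashed lines mark the fold minimum of 1 and dotted lines the median of all loci, 0.44. CNTFR and JAK3 lie right of the minimum in lists whose other members mostly lie left, and the targets run from -4.19 to 5.89.

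The loci whose pattern over the 12 libraries was most like that of 3 members were found by the Euclidean distance of log2(FPKM + 1) values centred on each gene. For IL6ST they were CPEB4 (distance 0.36), OPTN (0.37) and MAVS (0.39), for LIFR they were DCAF5 (0.40), SPG11 (0.43) and TRMT2B (0.44), and for STAT3 they were ACAP2 (0.11), PRKAR1A (0.17) and PLCE1 (0.18). OPTN averaged 46.7 FPKM in ESC7, 29.8 in ESC3 and 31.2 in ESC11, against 38.3 in fibroblasts. It shared with IL6ST the order of ESC7, fibroblasts and the other lines. Since OPTN was chosen for its nearness to IL6ST, that order is no separate result.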

How the data were processed

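Per the labels, polyA RNA of 12 pig libraries was read as 100 bp paired ends. The authors deposited FPKM per locus in 1 table of 30012 loci. Listed in the submitters' processing notes, with no role for any, are the build Sscrofa10.2, Cufflinks 2.1.1 and STAR 2.4.0b. Strand, multiply mapped reads and depth are not given in the sources used here, so no counting interval is given. All columns matched a label (0 unmapped).

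Values were fitted as log2(FPKM + 1) without scaling, with limma 3.58.1 in R 4.3.3 (group means of 12 libraries, variance trend, two-sided). Loci under 1 FPKM in all but 2 or fewer libraries were left out (18278 passed, all 9 members among them). IL6 passed through ESC libraries only, and LIF needed the fibroblast libraries. Errors are SD between libraries or limma SE. No label says that libraries came from separate cultures, so the spread behind the p-values is that between libraries and may be technical.

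The 9 genes and the lists were chosen with earlier results of these data known. Named were all 9, up to 4 called genes of each list with the largest difference and a higher group mean reaching 5 FPKM, list genes called between lines, and the 3 nearest loci of 3 members; other list genes were named after their values were seen. Some list genes that the rule names are counted but not reported here. Alternatives were pseudocounts of 0.1 and 5, other filters, quantile and median-ratio scaling, summed loci of a symbol, a replicate block and leaving out each library. Ensembl loci alone and the other IL6 and IL6R loci were added after seeing the data. The model was tested on simulated data. Plots used matplotlib 3.10.9.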

Additional observations from a re-analysis of the deposited data

Results flagged for a closer look

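The locus chosen for IL6 differed between parthenogenetic lines, by 1.26 in ESC7 minus ESC3 (log2, limma), and the Ensembl locus of IL6 gave 0.58. The target PIM2 differed between lines, by 1.06 in ESC3 minus ESC11 and by -1.10 in ESC7 minus ESC3. The marker GATA6 differed by 1.08 in ESC7 minus ESC3. The second IL6R locus, outside the comparisons of the 9 genes, had a mean of 1.78 FPKM in ESCs, above the fibroblast mean of 0.987 FPKM.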

How the results depend on the processing

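LIF and JAK1 kept their direction and their call against fibroblasts, in all ESCs and in each line, under every alternative run. LIF needed the fibroblast libraries to pass the filter on low values, so a difference was built into passing. For all loci called, the counts without scaling were 7874 (ESCs against fibroblasts), 8062 (ESC3), 7941 (ESC7) and 7847 (ESC11), and 402 (parthenogenetic against IVF lines), 454 (ESC3 against ESC11), 537 (ESC7 against ESC11) and 618 (ESC7 against ESC3). In the same order they were 4554, 4714, 4494, 4521, 225, 264, 248 and 219 with a pseudocount of 5. Among the 4 comparisons of ESC lines they were 673, 747, 904 and 1148 with a pseudocount of 0.1, and 131, 157, 209 and 321 with Ensembl loci alone. ESC7 against ESC3 gave 387 with an FPKM minimum of 5. Leaving out 1 library gave 7092 to 7893, 7246 to 8070, 7146 to 7935, 7045 to 7851, 302 to 414, 362 to 480, 428 to 567 and 565 to 620. With a replicate block the counts were 7880, 8058, 7932, 7843, 384, 445, 532 and 615. Deviations of same-numbered libraries correlated at -0.09 to 0.09 over 18 pairs, and those of differently numbered libraries at -0.16 to 0.18 over 36 pairs. No pairing by number was seen, though a correlation over all tested loci can miss one that moves few loci.

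For LIFR, ESC7 minus fibroblasts was -0.17 with quantile and -0.090 with median-ratio scaling, and for IL6ST it was -0.043 with median ratios, all opposite in sign to the value without scaling. The Ensembl locus of IL6 gave -0.29 (ESCs), -0.56 (ESC3) and -0.33 (ESC11). Summing the loci of JAK1 gave 2.07 for ESC3 minus ESC11 (adjusted p = 0.12) and -0.72 for ESC7 minus ESC3 (adjusted p = 0.558), where short loci hold most of the sum. The call of the first IL6 locus in ESCs was lost with a pseudocount of 5 (0.43), quantile scaling (0.66) and summed loci (0.84). JAK2 in ESC11 reached -1.01 without fibroblast replicate 2. Apart from leaving out libraries, single genes kept direction and side of the threshold in 625 results, passed it in 26, lost it in 16 and turned in 8. Causes were not tested. Depth is unknown, so how far it limits the low FPKM of LIF, IL6 and LIFR cannot be given.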
